A study of Rattus norvegicus and Mus musculus with 34 samples.

Results

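The messenger RNAs of 10 inflammatory cytokine genes, Il1a, Il1b, Il1rn, Il6, Tnf, Il10, Il12b, Il18, Il27 and Osm, were followed in healing periodontal tissue of rats and in a mouse macrophage line. They were taken by gene symbol as a fixed list, and all 10 were found among 20022 genes of the rat tables and among 51912 genes of the mouse table. The tissue came from wild type Sprague-Dawley rats, all males of 6–8 weeks at surgery, which received a periodontal bone defect of the mandible. In the sensory nerve− groups a segment of about 5 mm of the inferior alveolar nerve was removed at the same operation, and in the sensory nerve+ groups the nerve was kept. Tissue was taken at day 3, 7 or 14, from 4 rats per group and from 3 in the sensory nerve+ group of day 3. The cell experiment used RAW264.7, an established mouse macrophage line and so a single cell type from a single source, stimulated for 6 h with 100 ng/ml lipopolysaccharide (LPS), a bacterial cell wall component, in 6 cultures without and 5 with 10 nM calcitonin gene-related peptide (CGRP), a neuropeptide of sensory nerve endings. No unstimulated culture was analysed here, so the LPS response itself was not measured.

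Interleukin-1α and interleukin-1β (Il1a, Il1b) signal through the same receptor, which the receptor antagonist encoded by Il1rn occupies without signalling. Tumour necrosis factor (Tnf), interleukin-6 (Il6) and oncostatin M (Osm) are secreted early by activated myeloid cells, and the last pair signals through the shared gp130 chain. Interleukin-18 is made as a precursor, like interleukin-1β, and cleaved by caspase-1, so that mRNA levels do not report the active cytokine. Interleukin-10 restrains macrophage activation, and Il12b and Il27 encode subunits of the interleukin-12 family that act on T cells. In bone, interleukin-1, interleukin-6 and Tnf are known for promoting osteoclast formation.

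Total counts per rat lay between 14854389 and 18742274, and reads per macrophage culture between 55614185 and 71538840. In 23 rats the members covered a wide range of depth. Il1rn had 730 to 6114 expected counts per rat, Il1b 25.0 to 3123, Il18 80.0 to 1144, Osm 31.0 to 1853, Tnf 7.98 to 182 and Il6 3.00 to 369. The other 4 were near the limit of detection, with at most 58.0 counts for Il1a, 56.0 for Il10, 28.0 for Il12b and 5.11 for Il27, and with 3 counts or fewer in 9, 11, 10 and 17 of the 23 rats. Differences in those 4 genes were for the most part not detectable at this depth. The sensory nerve− rats of day 7 were deposited in a table of their own, so that a difference of that group from any other cannot be told apart from a difference between tables. Where values of several rats are listed, they follow the replicate numbers of the labels, and each is in CPM, counts relative to the library size after TMM scaling, which compares a gene between rats but not genes with each other. In tissue, fewer cells of a type and less RNA per cell cannot be told apart.

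The proximal promoters of 4 members are shown because the results in tissue turned mainly on Tnf, Il18 and Il1b, which followed different time courses, and because Il6 was the member with matches to nuclear factor kappa B and cAMP response motifs. RefSeq promoters (rat assembly GRCr8) were found for 7 of the 10 members, all but Il10, Il12b and Osm. The 250 bases before the annotated start are given 5′ to 3′ in the direction of the gene, at chr20:3626435-3626684 (plus strand) for Tnf, chr3:137036582-137036831 (minus strand) for Il1b, chr4:5894576-5894825 (minus strand) for Il6 and chr8:59801822-59802071 (plus strand) for Il18. Capitals mark every match, on either strand, to 4 motifs, the kappa B consensus, the cAMP response element TGACGTCA, the AP-1 site TGANTCA and the TATA box TATAAA. No matches overlapped in these 4 windows.
Tnf: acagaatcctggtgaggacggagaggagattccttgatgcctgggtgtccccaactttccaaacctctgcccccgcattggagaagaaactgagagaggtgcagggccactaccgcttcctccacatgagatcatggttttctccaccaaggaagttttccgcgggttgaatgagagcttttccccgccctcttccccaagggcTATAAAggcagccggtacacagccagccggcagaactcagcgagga
Il1b: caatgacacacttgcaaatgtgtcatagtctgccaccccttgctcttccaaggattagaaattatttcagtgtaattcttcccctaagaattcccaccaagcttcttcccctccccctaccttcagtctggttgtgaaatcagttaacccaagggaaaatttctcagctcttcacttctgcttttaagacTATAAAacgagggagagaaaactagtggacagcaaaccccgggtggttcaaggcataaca
Il6: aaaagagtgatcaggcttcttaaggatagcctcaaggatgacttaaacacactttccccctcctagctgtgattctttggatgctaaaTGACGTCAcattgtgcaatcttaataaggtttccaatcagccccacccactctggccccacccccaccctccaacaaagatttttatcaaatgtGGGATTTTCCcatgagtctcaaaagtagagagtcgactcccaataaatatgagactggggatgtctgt
Il18: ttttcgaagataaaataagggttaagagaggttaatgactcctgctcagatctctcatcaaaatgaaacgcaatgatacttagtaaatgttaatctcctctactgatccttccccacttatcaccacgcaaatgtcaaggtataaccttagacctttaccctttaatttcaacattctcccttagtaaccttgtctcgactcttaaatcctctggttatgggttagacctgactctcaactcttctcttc
Tnf and Il1b held TATAAA at 46 and 60 bases before the start, a motif found in 12.9% of 33469 rat promoter windows of this length. Il6 held TGACGTCA at 162 bases and a kappa B match at 68 bases before the start, motifs held by 1.59% and 3.54% of the windows. The Il18 window held none of the 4. Among the other members, Il1a held TATAAA at 237 and 32 bases and TGANTCA, which 6.34% of windows hold, at 12 bases before the start, Il1rn held TATAAA at 64 bases, and Il27 held none.

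The day of healing was compared within each nerve state. Tnf, a cytokine that activates NF-kB in most cell types, was highest at day 3. With the nerve in place it stood at 12, 4.35 and 7.42 CPM at day 3, at 1.67, 1.2, 0.385 and 1.60 CPM at day 7 and at 0.438, 1.84, 0.517 and 0.917 CPM at day 14. Every sensory nerve+ rat of day 3 lay above every one of the later days. The log2 fold change of day 3 over day 7 was 2.66 (SE 0.57, adjusted p = 0.0399, quasi-likelihood test of edgeR), and that of day 3 over day 14 was 3.04 (SE 0.60, adjusted p = 0.0419). Tnf was the 1 member of 6 tested that was called between days 3 and 7, where 6.67% of all genes tested were called. In that comparison its adjusted p rose to between 0.0821 and 0.126 without day 3 replicate 1 or 3 or without day 7 replicate 1, 2 or 4, with log2 fold changes of 2.27 to 2.86. Against day 14 it rose to between 0.0604 and 0.143 without any single rat of day 3 or without day 14 replicate 1, 3 or 4, with log2 fold changes of 2.63 to 3.33.

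After transection Tnf stood at 4.73, 3.19, 2.80 and 8.45 CPM at day 3, at 0.954, 0.707, 0.880 and 1.86 CPM at day 7 and at 1.14, 0.788, 1.42 and 3.94 CPM at day 14. The day 3 rats again lay above all those of day 7, while replicate 4 of day 14 reached into their range. Relative to the library total alone that rat lay below them. It had 43.0 Tnf counts in a total of 15694852, and the lowest rat of day 3 had 60.0 in 18742274. The log2 fold change of day 3 over day 7 was 2.12 (SE 0.46, adjusted p = 0.0292, edgeR), and Tnf was the 1 member called of 7 tested beside 10.4% of all genes. Without day 3 replicate 1, 2 or 4 or day 7 replicate 1, 2 or 3 the adjusted p of Tnf rose to between 0.0544 and 0.0864, with log2 fold changes of 1.69 to 2.27. Day 3 over day 14 gave 1.43 (SE 0.58, adjusted p = 0.107), which did not pass.

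Il18, whose product acts with interleukin-12 to raise interferon-γ, was lower at day 14. With the nerve it was 45.6, 42.5 and 44.3 CPM at day 3, 29.3, 16.5, 10.4 and 40.5 CPM at day 7, and 10.3, 11, 9.94 and 11.8 CPM at day 14. Rats of day 3 and of day 14 were tightly grouped and far apart, with means of 44.2 ± 1.57 (SD, n = 3) and 10.7 ± 0.823 (SD, n = 4). Those of day 7 were spread from the day 14 range to near that of day 3. Day 3 over day 14 gave a log2 ratio of 2.02 (SE 0.13, adjusted p = 0.0154, edgeR), so that Il18 and Tnf were the 2 members of 6 called beside 5.78% of all genes. The adjusted p of Il18 rose to between 0.0536 and 0.0753 without day 3 replicate 3 or without day 14 replicate 1, 3 or 4, and the log2 fold change stayed between 1.97 and 2.06 with any rat left out. Day 3 over day 7 gave 0.82 (SE 0.43, adjusted p = 0.286), although the groups did not overlap, as was so for 24.7% of all genes.

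After transection Il18 stood at 42.2, 40.6, 34.6 and 61.6 CPM at day 3, at 11.8, 43.4, 37.3 and 58.8 CPM at day 7 and at 22.5, 21.9, 8.76 and 14.7 CPM at day 14. Day 3 lay wholly above day 14, and day 7 spanned nearly the whole range. The log2 fold change of day 3 over day 14 was 1.42 (SE 0.32, adjusted p = 0.0175, edgeR). Without day 14 replicate 4 the adjusted p of Il18 was 0.0502 at a log2 fold change of 1.36. Day 7 over day 14 gave 1.14 (SE 0.48, adjusted p = 0.199).

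Il1b moved the other way between days 3 and 14 in the sensory nerve− rats. It stood there at 29.7, 7.67, 8.68 and 51.4 CPM at day 3, at 12.1, 32.3, 5.67 and 21.4 CPM at day 7 and at 209, 53.4, 94.1 and 286 CPM at day 14. On this scale all 4 rats of day 14 lay above all 8 of the earlier days. Relative to the library total alone days 3 and 14 overlapped. Replicate 3 of day 14 had 859 Il1b counts in a total of 18274588, and replicate 4 of day 3 had 954 in 18100332. Day 3 over day 14 gave a log2 ratio of -2.70 (SE 0.76, adjusted p = 0.0370, edgeR), and day 7 over day 14 gave -3.20 (SE 0.68, adjusted p = 0.104), which did not pass. Il1b and Il18 were the 2 members of 8 called between days 3 and 14, where 23.5% of all genes were called. The share of members called was thus near that of all genes. The adjusted p of Il1b rose to between 0.0550 and 0.0895 without day 3 replicate 1, 2 or 3 or day 14 replicate 1, 3 or 4, with log2 fold changes of -2.88 to -2.28.

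With the nerve Il1b was 101, 26.6 and 28.6 CPM at day 3, 7.46, 11.4, 1.07 and 33.2 CPM at day 7 and 85.7, 109, 13.2 and 69.7 CPM at day 14. Day 7 held the lowest value, but all 3 days overlapped. Day 7 over day 14 gave a log2 ratio of -2.43 (SE 0.96, adjusted p = 0.511, edgeR), and day 3 over day 14 gave -0.45 (SE 0.75, adjusted p = 0.733). Whether the day effect on Il1b differed between nerve states is part of the interaction of transection and day given further on, which no member passed. For Il1b that interaction had an unadjusted p of 0.198 (adjusted p = 0.998, edgeR).

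**Figure D1:**
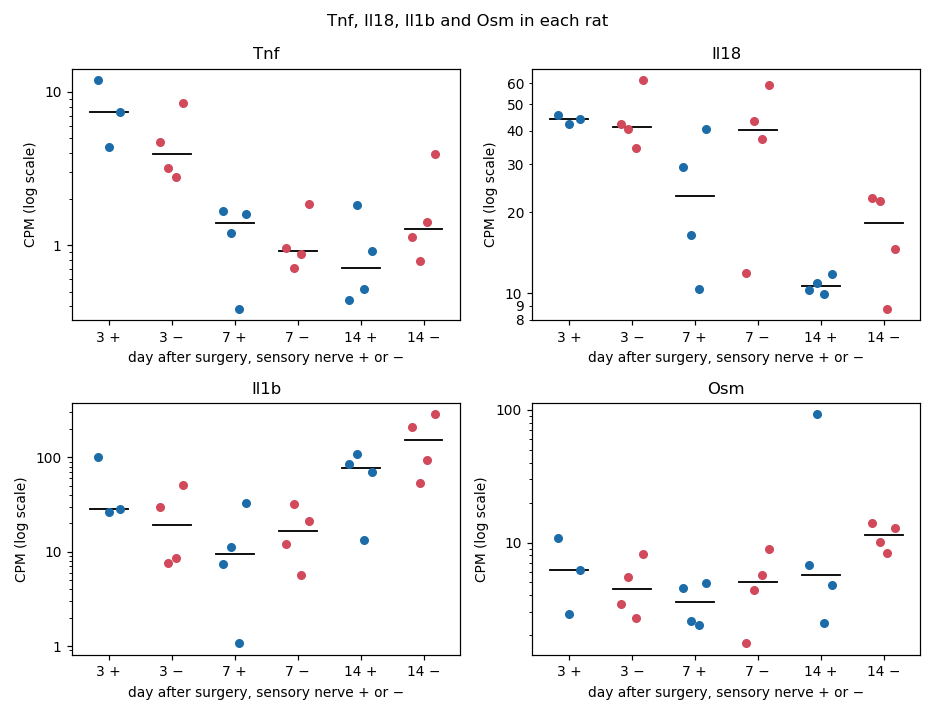
CPM of Tnf, Il18, Il1b and Osm on log axes, with 1 point per rat and a line at the median of each group, for days 3, 7 and 14 with (+, blue) and without (−, red) the sensory nerve. Tnf of the sensory nerve+ rats lies between 4.35 and 12 CPM at day 3 and no higher than 1.84 CPM later, and 1 sensory nerve+ rat of day 14 stands at 92.4 CPM of Osm.

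Osm, a gp130 cytokine of macrophages, neutrophils and T cells, was 3.44, 5.48, 2.71 and 8.13 CPM at day 3, 1.74, 4.40, 5.67 and 8.92 CPM at day 7 and 14.1, 10.1, 8.32 and 12.8 CPM at day 14 in the sensory nerve− rats. On this scale day 14 lay above day 3 in every rat. The log2 fold change of day 3 over day 14 was -1.17 (SE 0.37, adjusted p = 0.0532, edgeR), just outside the threshold. After TMM scaling the groups did not overlap for 27.3% of all genes in that comparison and for 3 members, Il18, Il1b and Osm, of the 8 tested. Relative to the library total alone the Osm groups overlapped. Replicate 3 of day 14 had 76.0 Osm counts in a total of 18274588. Replicates 2 and 4 of day 3 had 115 in 18492403 and 151 in 18100332. With the nerve Osm was 10.8, 2.91 and 6.18 CPM at day 3, 4.52, 2.55, 2.40 and 4.98 CPM at day 7 and 6.73, 92.4, 2.47 and 4.76 CPM at day 14. Replicate 2 of day 14 stood far above every other rat of the study, and the log2 fold change of day 7 over day 14, -2.90 (SE 1.15, adjusted p = 0.511), contains it. The summed CPM of 10 neutrophil markers in the same rat was 7186, against 89.8 to 1695 in the other 3 of its group. That rat also stood above the other 3 for markers of macrophages and monocytes (11060 against 1932 to 3977), of T, NK and B cells (567.6 against 78.8 to 208) and of dendritic and mast cells (343 against 57.3 to 84.9), and below them for those of skeletal muscle (217 against 10457 to 20759). The part of these cell types in the Osm value was not tested.

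Il6, the ligand that signals through gp130 with the interleukin-6 receptor, was high in single rats of day 14. It stood at 1.86, 0.299, 21.2 and 9.40 CPM in the sensory nerve+ and at 0.244, 0.732, 10.7 and 0.458 CPM in the sensory nerve− rats of that day. At days 3 and 7 it lay between 0.128 and 6.70 CPM in the sensory nerve+ rats and between 0.561 and 2.19 CPM in the sensory nerve− rats. The largest difference, day 7 over day 14 in the sensory nerve+ rats with a log2 ratio of -3.65 (SE 1.22, adjusted p = 0.485, edgeR), did not pass. No member of the 6 tested was called there, where 3 genes of 14868 (0.0202%) were called, and 4 members, Il1b, Il6, Il18 and Osm, had an unadjusted p under 0.05 beside 9.42% of all genes. Day 7 over day 14 in the sensory nerve− rats likewise had no member called of 6, with 2 genes of 14447 (0.0138%) called and with 3 members, Il1b, Il18 and Osm, at an unadjusted p under 0.05 beside 23.5% of all genes.

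Il1rn encodes the natural antagonist of the interleukin-1 receptor. Rats with the nerve had 275, 74.5 and 315 CPM at day 3, 160, 103, 49.9 and 96.5 CPM at day 7 and 81.6, 98.2, 64.8 and 106 CPM at day 14. Without the nerve it was 197, 107, 279 and 210 CPM at day 3, 47.7, 111, 238 and 219 CPM at day 7 and 89.8, 73.8, 79.9 and 246 CPM at day 14. No day comparison of Il1rn passed, the nearest being day 3 over day 14 with the nerve, at a log2 ratio of 1.30 (SE 0.45, adjusted p = 0.117, edgeR). Set against the agonist within each rat, the ratio of Il1rn to Il1b counts was 2.73 to 11 at day 3, 2.91 to 46.7 at day 7 and 0.899 to 4.91 at day 14 with the nerve. Without it the ratio was 4.08 to 32.2, 3.45 to 42.0 and 0.430 to 1.38. The ratio was not corrected for transcript length, so that it compares rats only, and in the sensory nerve− rats every value of day 14 lay below every value of days 3 and 7.

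Among the scarce members, Il1a stood at 3.81, 0.382 and 2.52 CPM at day 3 with the nerve and at 1.87, 1.38, 0.233 and 2.48 CPM without it. At day 7 no rat exceeded 0.338 CPM, and at day 14 the sensory nerve+ rats lay between 0.115 and 0.299 CPM and the sensory nerve− rats between 0 and 2.20 CPM. Its counts passed the filter on low counts in 2 of the 9 comparisons of group pairs, and day 3 over day 14 without the nerve gave a log2 ratio of 0.65 (SE 1.04, adjusted p = 0.676, edgeR). Il10, the main anti-inflammatory member, ranged from 0 to 3.59 CPM, with its highest values in a sensory nerve− rat of day 7 and a sensory nerve− rat of day 3. Day 3 over day 14 without the nerve gave 1.89 (SE 1.02, adjusted p = 0.203). Il12b ranged from 0 to 2.28 CPM and Il27 from 0 to 0.269 CPM. Il12b was tested only in the fits over all rats, and Il27 in no rat comparison.

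**Figure D2:**
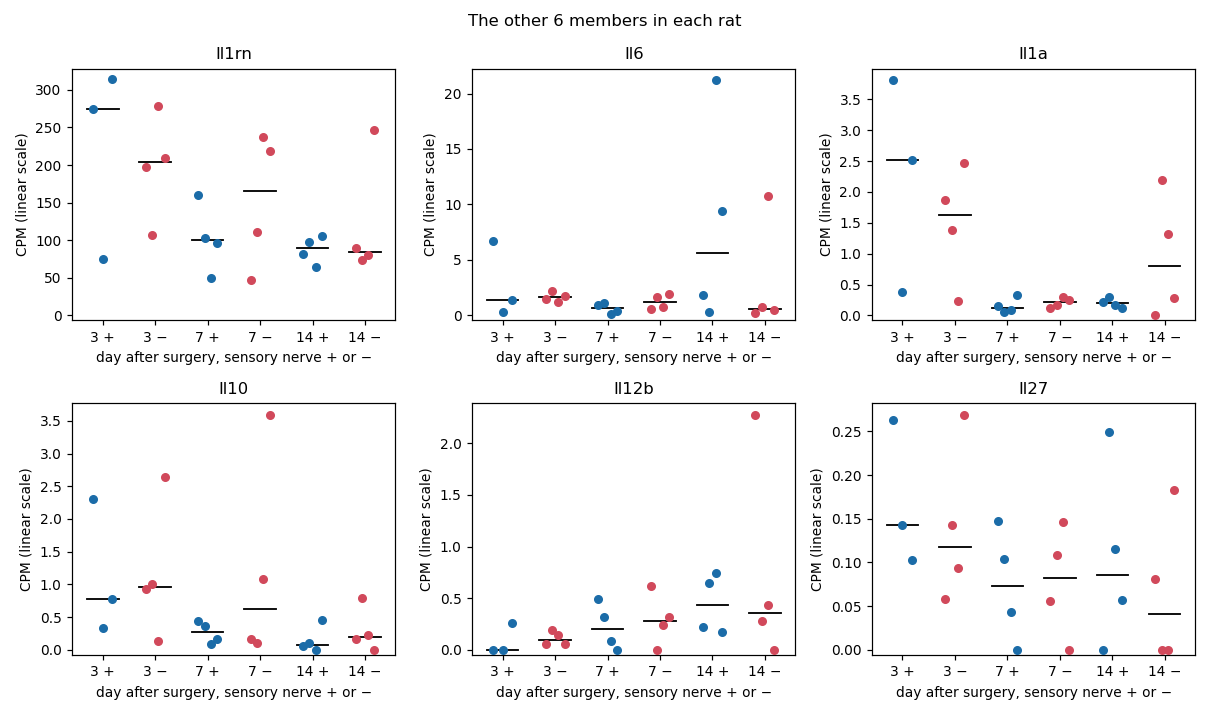
CPM of Il1rn, Il6, Il1a, Il10, Il12b and Il27 on linear axes, with 1 point per rat and a line at the median of each group. Il6 reaches 21.2 and 10.7 CPM in single rats of day 14, and no rat exceeds 0.269 CPM for Il27.

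Loss of the sensory nerve was compared at each day. No member was called at day 3 (8 tested), day 7 (6 tested) or day 14 (6 tested), and 0% of all genes were called in each of these comparisons. At an unadjusted p under 0.05 edgeR gave 122, 215 and 1363 genes (0.829%, 1.46% and 9.33%) and no member at the same days. DESeq2 called 0, 1 and 95 genes and no member. The groups overlapped for every member tested, while they did not overlap for 1.73%, 0.768% and 3.25% of all genes. The median log2 fold change of the members tested was -0.51 at day 3, 0.56 at day 7 and 0.56 at day 14, against -0.01, -0.01 and 0.03 over all genes, and scaling by the library total lowered the last of these from 0.03 to -0.41. The members tested were not the same at each day, so their medians are not like for like. The 10 macrophage and monocyte markers had medians of -0.12, 0.72 and 0.42, and the 5 erythroid markers of -0.77, -0.56 and 1.97. Skeletal muscle markers had medians of 1.47, -0.24 and -2.66, and epithelial markers of -0.86, -0.998 and -1.77. Markers of T, NK and B cells had medians of -0.06, 0.23 and 1.24, and neutrophil markers of 0.50, -0.36 and -1.03. The medians of the other marker lists lay between -0.27 and 0.31. The part of these cell types in the member values was not tested.

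Single members show how wide the errors were. Tnf gave log2 fold changes of sensory nerve− over sensory nerve+ of -0.73 (SE 0.48) at day 3, -0.14 (SE 0.51) at day 7 and 0.94 (SE 0.64) at day 14. Il1b gave -1.11 (SE 0.79), 0.43 (SE 0.87) and 1.2 (SE 0.68). Il18 gave 0.00 (SE 0.19), 0.65 (SE 0.54) and 0.65 (SE 0.28), the last with the smallest unadjusted p of any member in these comparisons, 0.0512 (adjusted p = 0.519, edgeR). With the 3 days in 1 fit, Il18 gave 0.46 (SE 0.24, adjusted p = 0.860) and Il10 gave 1.09 (SE 0.68, adjusted p = 0.860). None of the 9 members tested was called for transection over all days or for the interaction of transection with day, with 0% of all genes called in either fit and with 811 and 476 genes (5.11% and 3% of those tested) but no member at an unadjusted p under 0.05. For Tnf, the member called most often by day, the interaction had an unadjusted p of 0.155 (adjusted p = 0.998), with a transection effect that was larger by 1.68 on the log2 scale at day 14 than at day 3.

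**Figure D3:**
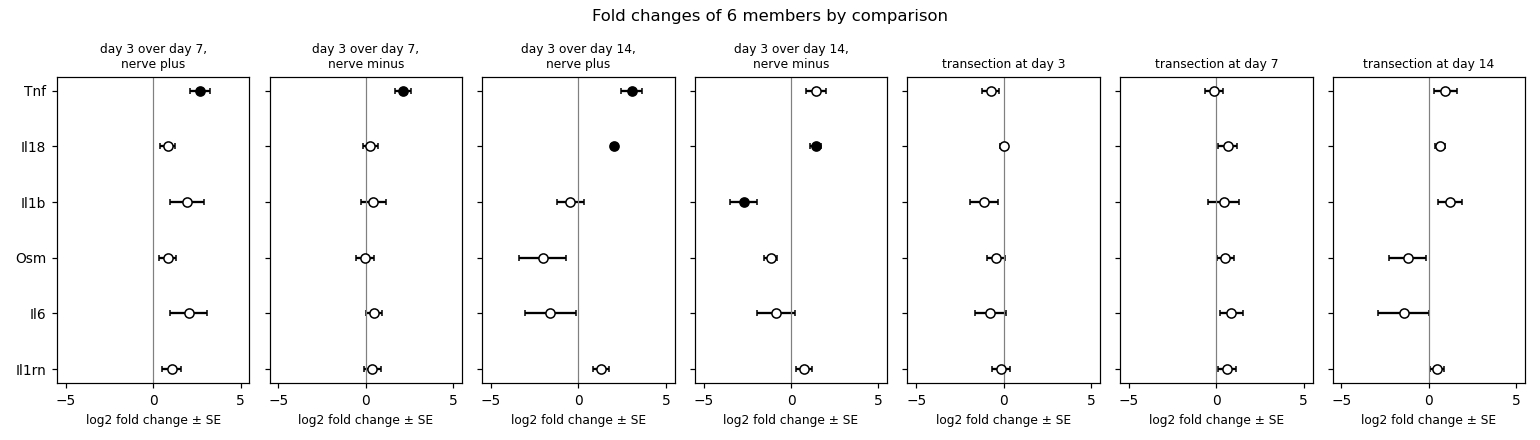
Log2 fold changes with SE of 6 members in 4 comparisons of days, nerve plus and nerve minus standing for the sensory nerve+ and sensory nerve− rats, and in transection (sensory nerve− over sensory nerve+) at each day, with filled circles for an adjusted p under 0.05. Filled circles stand only in the comparisons of days, for Tnf (2.66, 2.12 and 3.04), Il18 (2.02 and 1.42) and Il1b (-2.70).

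Related ligands and subunits, receptors, inhibitors and signalling genes of these cytokines were taken as 6 lists of 6 to 16 genes. None of their genes was called for transection or in the sensory nerve+ day comparisons. Between days 3 and 14 with the nerve the median log2 fold changes of the 6 lists were nonetheless all below 0. They ran from -1.25 (interleukin-12 and interleukin-27) to -0.12 (interleukin-10), against -0.0026 over all genes. In the interleukin-12 and interleukin-27 list 5 of 8 genes tested had an unadjusted p under 0.05 (edgeR), beside 4243 of all 15065 genes. Between days 3 and 14 in the sensory nerve− rats 17 of the 67 list genes tested were called, beside 23.5% of all genes called in either direction. The share called was thus near that of all genes. All 17 were lower at day 3, a direction in which 8.88% of all genes were called. In the interleukin-1 and interleukin-18 list 4 of 16 were lower. Sigirr, an inhibitory receptor, had a log2 ratio of -1.76 (SE 0.27, adjusted p = 0.00486, edgeR), Irak3, an inhibitory kinase homologue, of -0.89 (SE 0.17, adjusted p = 0.0102), and Il18r1, the interleukin-18 receptor chain, of -2.55 (SE 0.54, adjusted p = 0.0157). The list's median was -0.77, against 0.05 over all genes.

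The list of interleukin-12 and interleukin-27 family subunits, receptors and their transcription factors had the lowest median log2 fold change of the 6 lists, -1.86, with 5 of 8 genes tested called. Il12rb2, the signalling chain of the interleukin-12 receptor, gave -3.40 (SE 0.68, adjusted p = 0.0125, edgeR), Stat4, its transcription factor, -3.23 (SE 0.68, adjusted p = 0.0152), and Il12rb1 -1.85 (SE 0.40, adjusted p = 0.0165). In the list of NF-kB and its feedback 5 of 15 were called, among them Dusp1, a MAP kinase phosphatase, at -2.38 (SE 0.45, adjusted p = 0.0108), Tnip1 at -0.58 (SE 0.15, adjusted p = 0.0261) and Nfkbia, the NF-kB inhibitor IκBα, at -0.87 (SE 0.22, adjusted p = 0.0274). Of the TNF list 2 of 10 were called, Birc3 at -1.40 (SE 0.38, adjusted p = 0.0323) and the receptor Tnfrsf1b at -1.0 (SE 0.29, adjusted p = 0.0389). Of the interleukin-6 and Osm list 1 of 12 was called, Lifr, a receptor chain that binds Osm in complex with gp130, at -1.34 (SE 0.35, adjusted p = 0.0297), and of the interleukin-10 list none of 6. Between days 3 and 7 in the same rats only Il18bp, the decoy that binds interleukin-18, at -2.04 (SE 0.45, adjusted p = 0.0297), and Dusp1, at -1.47 (SE 0.21, adjusted p = 0.0140), were called among the lists, 2 of 66 genes tested beside 10.4% of all genes.

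The cell types in the tissue moved with the day as well. Skeletal muscle markers, 6 genes, summed to 18 to 455 CPM in the 7 rats of day 3 and to 206 to 29114 CPM in the 16 later rats. At day 3, where Tnf and Il18 were higher, all 6 were called lower than at day 7 and 5 of 6 lower than at day 14 with the nerve, and 4 of 6 and 1 of 5 tested without it. Epithelial markers, 8 genes, summed to 5.52 to 884 CPM at day 3 and to at most 379 CPM later, with 4 of 6 and 3 of 7 tested called higher at day 3 than at days 7 and 14 without the nerve. Without the nerve the 10 neutrophil markers summed to 62.8 to 918 at day 3, 33.0 to 312 at day 7 and 155 to 4607 at day 14, and 9 markers of T, NK and B cells to 90.3 to 198, 44.5 to 126 and 105 to 850. Between days 3 and 14 of these rats 2 of 9 neutrophil markers and 5 of 9 lymphocyte markers tested were called, all lower at day 3. Of the 9 neutrophil markers, 3 had a log2 fold change above 0. Dendritic and mast cell markers (4 of 8 tested) and endothelial markers (3 of 6) were called lower too. Of all genes 8.88% were called lower and 23.5% in either direction. Il1b and Il12rb2 were also lower at day 3. In the sensory nerve+ rats no neutrophil or lymphocyte marker was called between these days, at median log2 fold changes of -3.73 and -1.94. Of 9 tested in each list, 5 neutrophil and 9 lymphocyte markers had an unadjusted p under 0.05 there (edgeR), beside 4243 of all 15065 genes. Only 1 of them, a lymphocyte marker, had a log2 fold change above 0. Neutrophil markers of these rats summed to 192 to 333 at day 3, 15.1 to 562 at day 7 and 89.8 to 7186 at day 14. Their lymphocyte markers summed to 73.7 to 176, 7.96 to 129 and 78.8 to 567.6. No muscle, neutrophil or lymphocyte marker was at 0 in a whole group, whereas the epithelial Krt13 was at 0 in 4 of the 6 groups. The 10 macrophage and monocyte markers, likewise present in each group, summed to 5032 to 8071 at day 3, 2191 to 6394 at day 7 and 1932 to 11060 at day 14 with the nerve, with 2 of 10 called higher at day 3 than at day 14 and none called between days 3 and 7. Without it they summed to 3970 to 7920, 2798 to 12408 and 3086 to 6096, with 3 of 10 called higher at day 3 than at day 14 and 1 of 10 lower at day 3 than at day 7. Haemoglobin and other erythroid markers took 0.200% to 39.0% of the counts at day 14 and 1.60% to 9.78% at day 3 without the nerve. The part of any of these cell types in the changes of Tnf, Il18 and Il1b was not tested.

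**Figure D4:**
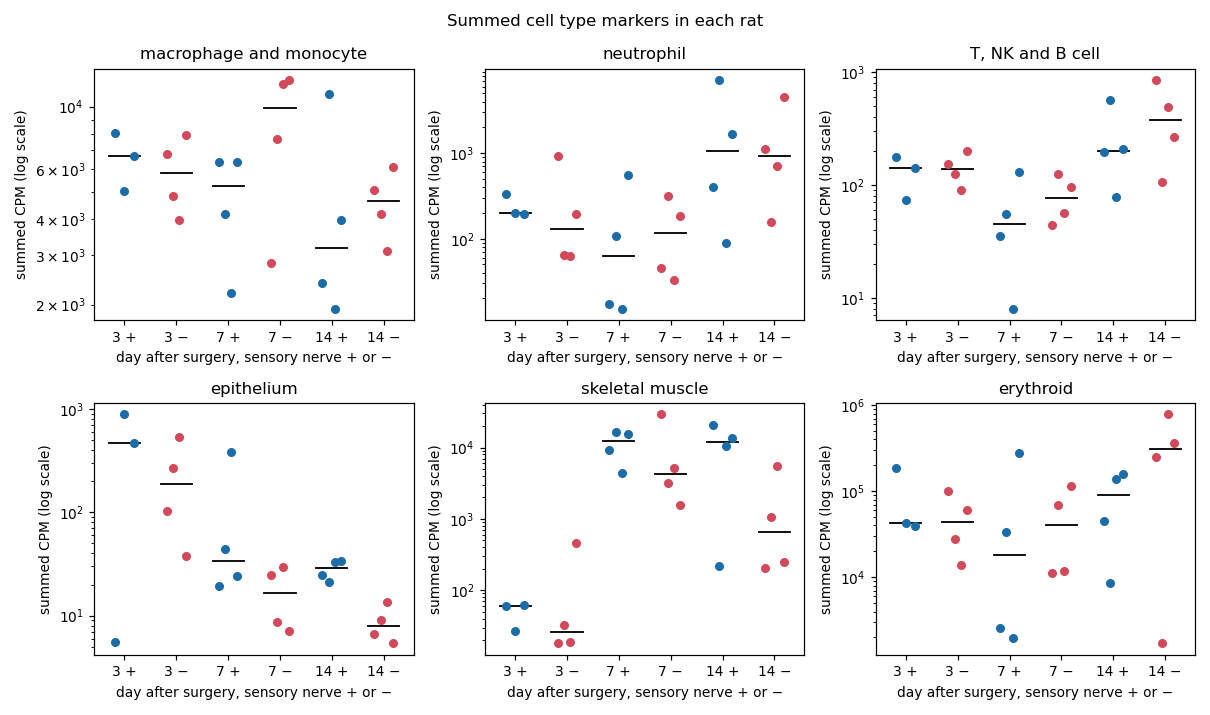
Summed CPM of marker genes of 6 cell types on log axes, with 1 point per rat and a line at the median of each group. Skeletal muscle markers lie at 18 to 455 in the rats of day 3, and erythroid markers differ widely between rats of a group.

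Over the 23 rats, the pattern of each member was set beside that of 15857 other genes as the mean absolute difference of standardised log2 CPM, where the median gene stood 1.06 to 1.16 SD away. Il1b was nearest to Ccr3 and Trpm2 (0.252 SD each). Il18 was nearest to Arl11 (0.293 SD) and Cndp2 (0.305 SD), and Tnf to LOC120099632 (0.266 SD) and LOC120103612 (0.307 SD). Il1a was nearest to the neutrophil chemokines Cxcl2 (0.325 SD) and Cxcl1 (0.364 SD), and Osm to Sirt7 (0.320 SD) and Ikbkb (0.342 SD). The nearest genes of Il1rn, Cd44 and Clptm1, stood at 0.422 and 0.431 SD, those of Il6, Adamts1 and Il1r1, at 0.492 and 0.504 SD, those of Il10, LOC691807 and Commd9, at 0.471 and 0.475 SD, and those of Il12b, Usp38 and Testin, at 0.524 and 0.525 SD. These likenesses are descriptive, and they share the libraries and the day of each rat.

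In the LPS-stimulated macrophages 9 of the 10 members passed the filter of at least 0.5 CPM in at least 5 cultures. Il6 was the scarcest of them, with 101 to 165 reads per culture. Levels were compared between genes per kilobase of exon in GENCODE vM21 (GRCm38/mm10), with all annotated exons of a gene merged. That length was 5535 bases for Il1rn and 1639 for Tnf. Before division by it Il1rn stood above Tnf with LPS (means of 774 and 548 CPM), so their order depends on the length used. Tnf (chr17:35199381-35202007, minus strand) stood highest on this scale, at 334 ± 7.2 CPM per kilobase (SD, n = 6) with LPS. Il1rn (chr2:24336853-24351494, plus strand) followed at 140 ± 8.18, Il1b (chr2:129364570-129371139, minus strand) at 81.3 ± 4.99 and Il1a (chr2:129299610-129309972, minus strand) at 29.4 ± 1.67. Il27 (chr7:126589010-126594941, minus strand) stood at 18.7 ± 0.508 and Il18 (chr9:50554827-50581840, plus strand) at 16.0 ± 1.29. Il10 (chr1:131019845-131024974, plus strand), at 2.65 ± 0.257, and Osm (chr11:4236420-4241026, plus strand), at 2.53 ± 0.130, overlapped between cultures, so their order was within the spread. The cultures of Il6 (chr5:30013114-30019981, plus strand) lay lower, at 0.921 ± 0.105, and Il12b (chr11:44400063-44414033, plus strand) had 3 reads or fewer in all 11 cultures and none in 7 of them. The line carried its macrophage markers, with Cd68 at 761 to 793 CPM and Adgre1 at 146 to 157 CPM in the LPS cultures, whereas C1qa was at or near 0.

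CGRP was added to ask whether the neuropeptide alters this response. None of the 9 members tested was called by limma, beside 2 of 11906 genes (0.0168%), and the groups overlapped for every member tested and did not overlap for 1.23% of all genes. DESeq2 on the recovered reads called 87 genes and edgeR none, neither with a member. The tightest estimate was that of Tnf, which stood at 534 to 569 CPM (median 547) with LPS and at 534 to 553 CPM (median 548) with CGRP, a log2 ratio of -0.01 (SE 0.02, adjusted p = 0.888). Il1b stood at 146 to 169 CPM (median 153) and at 145 to 164 CPM (median 157), a log2 ratio of 0.01 (SE 0.04, adjusted p = 0.947). Il6 gave -0.06 (SE 0.07), Il10 -0.03 (SE 0.07), Osm 0.01 (SE 0.07) and Il1a -0.01 (SE 0.04), none of which passed.

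The members that came nearest to the threshold were lower with CGRP by small amounts. Il27 stood at 18.2 to 19.7 CPM (median 19.1) with LPS and at 16.6 to 18.5 CPM (median 17.2) with CGRP. Its log2 fold change was -0.13 (SE 0.03, unadjusted p = 0.000443, adjusted p = 0.134, limma). Il18 stood at 14.7 to 18.3 CPM (median 16.9) and at 14.0 to 16.1 CPM (median 15.2), a log2 ratio of -0.12 (SE 0.05, adjusted p = 0.390). Il1rn stood at 701 to 839 CPM (median 779) and at 685 to 772 CPM (median 740), a log2 ratio of -0.08 (SE 0.04, adjusted p = 0.451). These were the 3 members of 9 at an unadjusted p under 0.05, beside 10.8% of all genes. Of the 6 lists of related genes none had a gene called.

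**Figure D5:**
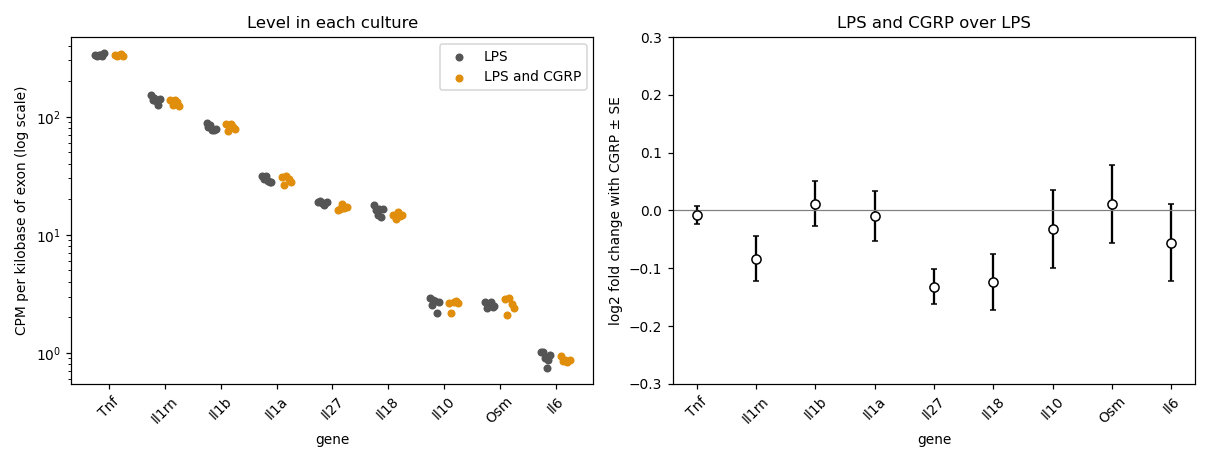
Left, CPM per kilobase of exon (log axis) of 9 members in each culture with LPS (grey) and with LPS and CGRP (orange). Right, the log2 fold change with CGRP and its SE for the same genes, on an axis from -0.3 to 0.3, with Il27 at -0.13 and Il18 at -0.12 the lowest and none with an adjusted p under 0.05.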

How the data were processed

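Rat tissue RNA and macrophage RNA were sequenced on different platforms (DNBSEQ and NextSeq). The rat values are expected counts, deposited after alignment with HISAT and Bowtie2, where a read that maps to several genes is divided among them, and they were rounded to integers. The macrophage values were deposited as a signal for every gene and run, after trimming with cutadapt, alignment to mm10 with STAR and multiplication of whole reads by 1 factor per run (100% of values whole, within 0.01). Both runs of a culture were added. The tables held no column of another sample.

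For the rats, TMM scaling, the filterByExpr filter and edgeR 4.0.16 (quasi-likelihood) were applied to the groups of a comparison alone, and an SE is the log2 fold change over the root of F. For the macrophages limma 3.58.1 was run on log2 of TMM-scaled CPM plus 0.5, because a count test, the original choice, needs counts. Alternatives were DESeq2 1.42.0, edgeR and DESeq2 on the recovered reads, other scalings, filters and pseudocounts, single runs, a replicate block, 1 fit of all rats, and each sample left out. Adjustment was by Benjamini-Hochberg over all genes, at 0.05. The labels do not say that cultures were independent, so p-values then measure the spread between these samples, which may be technical. The tests were checked on simulated counts. R 4.3.3 was used.

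The text names the 10 members, up to 3 called genes per list and comparison with the smallest p, and the 2 genes nearest to each member. Members and lists were chosen with earlier results of these data known. The floor of 3 counts covers counting error only.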

Additional observations from a re-analysis of the deposited data

Results flagged for a closer look

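In 67 groups of 4 to 6 samples, 4 single samples stood apart from their group by Dixon's criterion, of which chance gives about 1 in 20 groups. Osm was 92.4 CPM in replicate 2 of the sensory nerve+ rats of day 14, against 2.47 to 6.73 CPM in the other 3. Il6 was 10.7 CPM in replicate 3 of the sensory nerve− rats of day 14, against 0.244 to 0.732 CPM. Il1rn was 246 CPM in replicate 4 of the same group, against 73.8 to 89.8 CPM. Il10 was 2.86 CPM in replicate 2 of the macrophage cultures with CGRP, against 3.45 to 3.59 CPM, a low value within the range of the LPS cultures.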

How the results depend on the processing

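The members called by day kept their direction in every alternative fit. With all rats kept, the number of members called between days 3 and 14 with the nerve went from 2 to 3 under DESeq2 and under 1 fit of all rats. Without the nerve it lay between 2 and 3. Moves by over 1.5 times, or from or to 0, came in these cases. All 23 rats in 1 fit added Il1a to Tnf between days 3 and 7 with the nerve (2 members) and called Il1b between days 7 and 14 without it (1 member). DESeq2 called 1 member between days 7 and 14 in either nerve state, Il6 with the nerve and Il1b without it. In no comparison did every same-numbered pair of rats have a correlation of deviations above 0.1, so replicate numbers were not treated as pairs (mean correlations from -0.13 to 0.17). For transection at day 7 all 4 pairs were above 0, the lowest at 0.03. With 3 or 4 pairs this check cannot exclude a pairing or a batch. With the replicate number as a block, 0 members were called between days 3 and 7 and between days 3 and 14 with the nerve and between days 3 and 7 without it, and no other member count moved by over 1.5 times. Leaving out 1 rat gave 0 to 2 members between days 3 and 7 in either nerve state, 0 to 3 between days 3 and 14 with the nerve and 1 to 3 without it, and 0 to 1 between days 7 and 14 without it, where sensory nerve− day 14 replicate 2 was the rat whose absence added a member. The cause was not tested. The counts of all genes called were less stable, from 1002 to between 122 (block) and 2808 (DESeq2) for days 3 and 7 with the nerve, from 871 to between 0 (block) and 3375 (DESeq2) for days 3 and 14 with it, from 1523 to between 2 (block) and 3218 (DESeq2) for days 3 and 7 without it, from 3393 to between 1184 (library total) and 4851 (DESeq2) for days 3 and 14 without it, from 3 to between 0 and 325 and from 2 to between 0 and 1991 for days 7 and 14, and from 2 to between 0 and 87 for CGRP. Scaling by the library total moved the median log2 fold change of all genes from 0.05 to 0.42 between days 3 and 14 without the nerve, and the share of calls that were higher from 62.2% to 74.0%. With it, that share went from 53.4% to 34.6%, and between days 3 and 7 from 26.8% to 12.4%. Between days 7 and 14, with few calls, it went from 33.3% to 15.4% with the nerve and from 0% to 85.7% without it. No alternative called a member for transection or CGRP. The counts of Il1a, Il10, Il12b and Il27 limit what could be seen in rats.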

Other observations

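In the macrophages the ratio of Il1rn to Il1b reads was 4.79 to 5.25 in the 6 LPS cultures and 4.54 to 4.77 in the 5 cultures with CGRP, so that the groups did not overlap. The ratio was chosen after the values were seen and was not tested. In the first sequencing run alone the groups overlapped, at 4.73 to 5.24 and 4.52 to 4.83, and in the other run they did not, at 4.84 to 5.26 and 4.57 to 4.71.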
